A study of Mus musculus with 18 samples.

Results

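Svil, Rnf24, Usp25, Clec16a, Gramd1b and Mgll each held a stretch of chromatin in mouse macrophages that was more open when CpG had been given first than when polyI:C had been given first, both under LPS and under TNF. Their regions are the 73 of 53796 deposited regions whose midpoint lay inside one of the 6 genes, or within 50 kb of it with no nearer protein-coding gene. Gramd1b had 26 of them, Svil 17, Usp25 11, Clec16a 11, Rnf24 5 and Mgll 3. One of the Svil regions (chr18:4987195-4987696) also lies in the predicted gene Gm52363. The genes were picked for their differences between CpG and polyI:C as first stimulus in these same libraries, so those differences are given below as a description, without a test.

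ATAC-seq, which uses a transposase to cut and tag open DNA, was done on macrophages grown with M-CSF (20 ng/mL) from bone marrow of wild-type C57BL/6 mice aged 6 to 12 weeks. Each culture had a first treatment of 4 h and a second of 4 h, and the group names give both in that order. The groups with 2 stimuli were CpG then LPS (CL), polyI:C then LPS (PL), CpG then TNF (CT) and polyI:C then TNF (PT). Those with 1 stimulus had medium first and then CpG (MC), polyI:C (MP), LPS (ML) or TNF (MT), and MM had medium in both steps. Doses were 100 nM CpG, 1 µg/mL polyI:C, 1 ng/mL LPS and 10 ng/mL TNF. No group analysed here had CpG or polyI:C first and medium second, so the cells of MC were harvested 4 h after CpG was added, and those of CL and CT only after a further 4 h with another stimulus.

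Each of the 9 groups had 2 libraries, with 3141641 to 5986835 reads in regions per library. Whether the libraries of a group came from separate animals or cultures is not stated in the labels, so the p-values speak to the spread between libraries, which may be technical. The 2 MP libraries agreed within counting noise (chi-square per region 1.0035, p = 0.285, against 1.0691 to 2.7139 in the other 8 groups), and their mean was counted as 1 library. The PT libraries stood farthest apart, correlating across regions at 0.919, against 0.958 to 0.973 in the other groups. All 9 macrophage genes examined, Csf1r and Spi1 among them, had a region within 1 kb of a gene end, at mean levels of 3.50 to 5.86 log2 CPM. Of 19 genes of other cell types, 4 had one, Cd3d at 4.32, S100a8 at 4.15, Ebf1 at 2.93 and Flt3 at 2.75, the first pair within the macrophage range. Another 6 had regions only farther from their ends, at up to 5.53 (Cdh5) and 5.42 (Siglech), and 9 had no region, among them Cd3e, Elane and Col1a1. The part of other cells in the results was not tested. Values are log2 CPM, in which reads are scaled to library size with a prior of about 3 reads added, so that 0 reads stand at -0.70. All regions span 501 bases, so their levels can be set side by side.

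CpG DNA is sensed by TLR9 in endosomes, which signals through MyD88, and polyI:C by TLR3 in endosomes, which signals through TRIF, and by cytosolic RNA sensors. LPS acts through TLR4, which uses both adaptors, and TNF through its own receptors. Such signals open enhancers that are closed in resting macrophages, and some of these stay open after the first signal. Among the 6 genes, Svil encodes supervillin, a membrane-bound protein of the villin and gelsolin family that binds actin and myosin II. Rnf24 encodes a membrane protein with a RING finger, and Usp25 a deubiquitinase that acts on TRAF proteins of innate immune signalling. Clec16a encodes an endolysosomal protein needed for mitophagy, the removal of damaged mitochondria. Gramd1b encodes Aster-B, which carries cholesterol from the plasma membrane to the endoplasmic reticulum, and Mgll encodes monoacylglycerol lipase, which breaks down the endocannabinoid 2-arachidonoylglycerol.

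The bases just before the start of Rnf24, Usp25 and Clec16a are shown because each of these stretches overlapped deposited regions that can be set against the distal regions of the same gene. The 250 bases before each start are from RefSeq (GRCm38.p6), 5′ to 3′ on the strand of the gene. RefSeq entries were matched for Mgll as well, whose 2 windows overlapped no deposited region. The Usp25 window lies inside the gene body used to assign regions, and the Clec16a window reaches into the body of its gene.
Rnf24 (chr2:131352893-131353142, minus strand): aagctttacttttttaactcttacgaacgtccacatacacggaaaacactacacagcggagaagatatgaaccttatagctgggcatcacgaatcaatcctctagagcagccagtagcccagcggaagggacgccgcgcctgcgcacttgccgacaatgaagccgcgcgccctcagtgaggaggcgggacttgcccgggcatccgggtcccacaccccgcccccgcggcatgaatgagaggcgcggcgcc
Usp25 (chr16:77013819-77014068, plus strand): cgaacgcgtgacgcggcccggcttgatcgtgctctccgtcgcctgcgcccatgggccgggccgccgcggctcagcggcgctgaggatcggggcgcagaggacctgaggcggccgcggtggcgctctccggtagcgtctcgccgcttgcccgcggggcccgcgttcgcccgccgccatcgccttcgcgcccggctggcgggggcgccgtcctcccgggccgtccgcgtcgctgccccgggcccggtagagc
Clec16a (chr16:10545089-10545338, plus strand): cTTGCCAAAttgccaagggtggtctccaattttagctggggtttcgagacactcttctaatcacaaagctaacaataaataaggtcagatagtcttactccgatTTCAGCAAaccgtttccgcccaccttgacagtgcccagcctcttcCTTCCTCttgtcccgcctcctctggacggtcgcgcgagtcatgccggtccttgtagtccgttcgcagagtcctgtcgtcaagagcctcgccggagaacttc
Capitals mark matches, on either strand, to 1 of 5 motifs searched in these windows. These were AP-1 (TGANTCA), NF-kB (GGGA, any base, TTTCC), IRF (GAAA, any 2 bases, GAAA), C/EBP (TTGCNNAA) and PU.1 (GAGGAAG), with N for any base, and matches of different motifs were allowed to overlap. Clec16a held 2 C/EBP matches and 1 PU.1 match, motifs that 9.56% and 10.6% of all 32851 such windows hold at least once. Rnf24 and Usp25 held no match to any of the 5, of which AP-1 is found in 6.75% of windows, IRF in 2.98% and NF-kB in 0.356%. The Usp25 window was 80.0% G and C with 47 CG dinucleotides, that of Rnf24 59.6% with 23 and that of Clec16a 52.8% with 15, beside medians of 52.4% and 6 over all windows.

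Regions were counted as holding where CL exceeded PL and CT exceeded PT, each at an adjusted p under 0.05 in limma's fit over all regions. By this count 7 of the 73 regions held, 2 at Svil and 1 at each of the other genes, beside 1589 of all 53796 regions (2.95%). In CL against PL, 8 member regions were higher and 5 lower (of all regions 8.47% were called, 4.24% higher and 4.23% lower). In CT against PT, 20 were higher and 8 lower (of all regions 32% were called, 17.3% higher and 14.6% lower). The genes were chosen by these contrasts, so nothing is read from the counts, and without PT replicate 1 the number that held was 11. For each gene, the holding region with the largest smaller-of-the-2 difference is called its lead region. The 6 lead regions ranked between 2 (Svil) and 17 (Mgll) among the 1589 by that smaller difference.

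**Figure D1:**
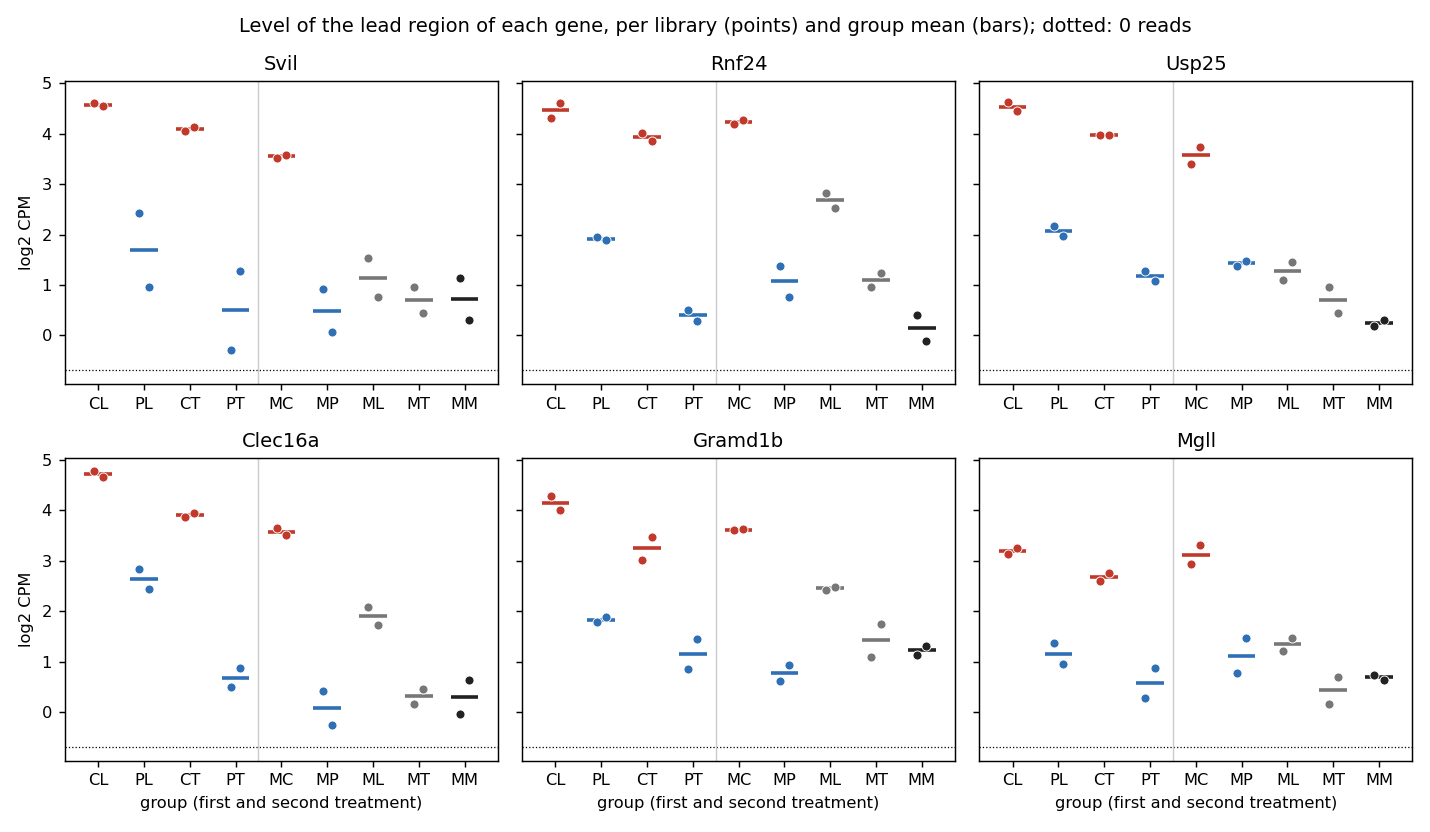
Level of the lead region of each gene (log2 CPM, vertical axis) in the 9 groups (horizontal axis), where points are single libraries, bars are group means and the dotted line marks 0 reads. The CL, CT and MC libraries lay above the PL, PT, MP and MM libraries at all 6 regions. Such separation was not counted over all regions.

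The Svil lead region (chr18:5085333-5085834) lies inside the gene. It stood at 4.60 and 4.56 log2 CPM in CL, against 2.43 and 0.96 in PL, and at 4.05 and 4.14 in CT, against -0.29 and 1.28 in PT. Both libraries with CpG first were thus above both libraries with polyI:C first under each second stimulus. CpG alone gave 3.53 and 3.58 in MC, against 0.91 and 0.07 in MP and 1.13 and 0.31 in MM, while ML stood at 1.53 and 0.75 and MT at 0.97 and 0.45. The ML, MT and MP libraries overlapped the MM libraries. In reads, the CpG-treated libraries held 53 to 115, and the 2 MM libraries 9 and 2. The difference was 2.89 ± 0.41 (SE) for CL against PL and 3.60 ± 0.41 for CT against PT.

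The Rnf24 lead region (chr2:131364575-131365076) lies between genes, 11.9 kb upstream of the gene's start. Levels were 4.32 and 4.62 in CL, against 1.95 and 1.89 in PL, and 4.02 and 3.86 in CT, against 0.50 and 0.29 in PT. In MC they were 4.20 and 4.28, in MP 1.38 and 0.76, in ML 2.82 and 2.53, in MT 0.97 and 1.24, and in MM 0.40 and -0.10. All the libraries given 1 stimulus lay above the MM libraries, and those with CpG lay highest. The MM values stand for 4 and 1 reads. CL exceeded PL by 2.55 ± 0.28 and CT exceeded PT by 3.55 ± 0.28.

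The Usp25 lead region (chr16:77068329-77068830) lies inside the gene, 54.5 kb from its start. It had 4.63 and 4.45 in CL, against 2.17 and 1.97 in PL, and 3.98 and 3.98 in CT, against 1.27 and 1.09 in PT. With 1 stimulus it had 3.39 and 3.75 in MC, 1.38 and 1.47 in MP, 1.09 and 1.46 in ML and 0.97 and 0.45 in MT, against 0.19 and 0.31 in MM. Here too each of the single stimuli left both libraries above the MM pair, by the least in MT. CL exceeded PL by 2.47 ± 0.29 and CT exceeded PT by 2.80 ± 0.29.

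The Clec16a lead region (chr16:10584806-10585307) lies inside the gene, 39.7 kb from its start. It had 4.77 and 4.65 in CL, against 2.83 and 2.45 in PL, and 3.87 and 3.94 in CT, against 0.50 and 0.87 in PT. Single stimuli gave 3.65 and 3.51 in MC, 0.42 and -0.26 in MP, 2.08 and 1.72 in ML and 0.16 and 0.45 in MT, against -0.05 and 0.64 in MM. MC and ML lay above MM in both libraries, and MP and MT overlapped MM. The region held 58 reads in each MC library and 1 in MP replicate 2. CL exceeded PL by 2.07 ± 0.30 and CT exceeded PT by 3.22 ± 0.30.

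The 2 genes of lipid handling had the lowest lead regions in CL and CT. The Gramd1b lead region (chr9:40428985-40429486, inside the gene) had 4.28 and 4.02 in CL, against 1.78 and 1.89 in PL, and 3.02 and 3.48 in CT, against 0.86 and 1.45 in PT. It had 3.60 and 3.62 in MC, 0.61 and 0.93 in MP, 2.42 and 2.49 in ML and 1.09 and 1.75 in MT, against 1.13 and 1.32 in MM. The MP libraries lay below the MM libraries here. CL exceeded PL by 2.32 ± 0.29 and CT exceeded PT by 2.09 ± 0.29.

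The Mgll lead region (chr6:88736869-88737370), inside the gene and 12.4 kb from its nearest start, had the lowest levels in CL, with 3.13 and 3.26, against 1.36 and 0.96 in PL. In CT it had 2.60 and 2.75, against 0.28 and 0.87 in PT. The single stimuli gave 2.93 and 3.31 in MC, 0.77 and 1.47 in MP, 1.22 and 1.46 in ML and 0.16 and 0.69 in MT, against 0.74 and 0.64 in MM. The groups with CpG did not overlap the others. CL exceeded PL by 2.04 ± 0.34 and CT exceeded PT by 2.10 ± 0.34.

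These regions were close to shut in unstimulated cells. Over the 6, the MC libraries held 34 to 101 reads and the MM libraries 1 to 9. The mean MC level ranked between the 27.4 (Mgll) and 66.7 (Rnf24) percentile of all regions, and the mean MM level between the 0.214 (Rnf24) and 2.77 (Gramd1b) percentile. The prior shrinks differences at such low counts. On pooled reads without it, the log2 ratio of MC to MM was 5.02 at Rnf24, 4.35 at Usp25, 4.34 at Clec16a, 3.17 at Svil, 3.02 at Mgll and 2.79 at Gramd1b. In these bulk libraries, fewer cells with an open site and less opening in each cell cannot be told apart.

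**Figure D2:**
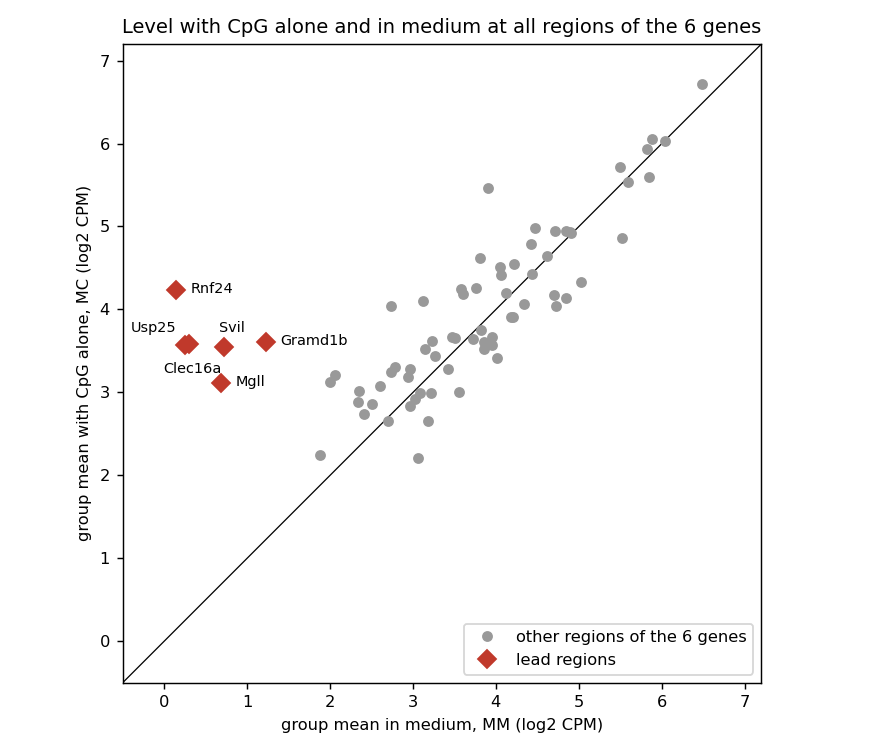
Group mean with CpG alone (vertical axis, log2 CPM) against the group mean in medium (horizontal axis, log2 CPM) at all 73 regions, with the 6 lead regions as red diamonds and the line of equal levels. The lead regions stood at or below 1.23 in MM and the other 67 at or above 1.88.

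Libraries with 1 stimulus are not part of the contrasts that define the members, although the genes were chosen with earlier results of all these libraries known. They give the level of these regions with each ligand after medium. Which libraries the deposited regions were found in is not stated in the sources used here. The lead regions held 34 to 101 reads in MC libraries, 1 to 9 in MM and 1 to 11 in MP. They may thus have entered the deposited set through libraries with CpG, which favours MC. The p-values below do not allow for this. All but one of the comparisons below share the MM libraries. CpG alone raised all 6 lead regions over MM, by 4.09 ± 0.28 at Rnf24 (adjusted p = 1.09e-13), 3.32 ± 0.29 at Usp25 (4.24e-11), 3.29 ± 0.30 at Clec16a (1.21e-10), 2.83 ± 0.41 at Svil (1.67e-06), 2.43 ± 0.34 at Mgll (9.14e-07) and 2.39 ± 0.29 at Gramd1b (6.52e-08). Both MC libraries lay above both MM libraries at 6 of 6. How many of all regions show such separation was not counted, so nothing is read from this. Over all 73 member regions 16 were higher in MC and 7 lower, or 21.9% and 9.59%, beside 17.2% and 8.79% of all regions (26% called in all), so the count over the loci as a whole lay near the background. The median difference was 0.17 over the member regions and 0.01 over all regions. The 67 regions other than the lead ones had 10 higher and 7 lower.

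PolyI:C alone did much less at the lead regions. It raised Usp25, by 1.17 ± 0.36 (adjusted p = 0.0146), and Rnf24, by 0.93 ± 0.34 (0.0483). The other 4 were not called, with differences of MP from MM of 0.43 ± 0.42 at Mgll, -0.21 ± 0.37 at Clec16a, -0.23 ± 0.51 at Svil and -0.46 ± 0.36 at Gramd1b. The Rnf24 call was lost in 8 of 13 alternative settings, among them without MM replicate 2 and without MP replicate 1. Its difference ran from 0.17 to 1.46 over these settings. The Usp25 call was lost in 3, among them without MM replicate 1, and its difference ran from 0.41 to 1.58 over the 13. Elsewhere in the loci polyI:C alone raised other regions. Over the 73 regions 12 were higher in MP and 6 lower, beside 14.3% and 8.28% of all regions (22.5% called in all), and the count of 18 called fell to 10 without MM replicate 1 and 11 without MM replicate 2. A region between genes 40.1 kb upstream of the Rnf24 start (chr2:131392756-131393257) averaged 5.02 in MP and 2.73 in MM, a difference of 2.29 ± 0.22 (adjusted p = 1.03e-09). CpG alone raised it by 1.31 ± 0.18. One near Gramd1b (chr9:40563610-40564111, between genes) averaged 4.18 in MP and 2.06 in MM, 2.12 ± 0.31 apart (adjusted p = 2.94e-06). These last 2 regions were chosen after their values were seen.

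Set directly against each other, CpG alone exceeded polyI:C alone at all 6 lead regions. MC exceeded MP by 3.50 ± 0.37 at Clec16a (adjusted p = 3.16e-08), 3.16 ± 0.34 at Rnf24 (5.39e-08), 3.06 ± 0.51 at Svil (5.44e-05), 2.84 ± 0.36 at Gramd1b (8.91e-07), 2.14 ± 0.36 at Usp25 (6.16e-05) and 2.00 ± 0.42 at Mgll (0.00105). Both MC libraries lay above both MP libraries at 6 of 6, again without a count over all regions. Of the 73 regions 13 were higher in MC and 3 lower, or 17.8% and 4.11%, beside 7.47% and 5.2% of all regions (12.7% called in all). The lead regions made up 6 of the 13, and among the other 67 there were 7 higher and 3 lower. The count of 16 called fell to 10 without MC replicate 2.

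**Figure D3:**
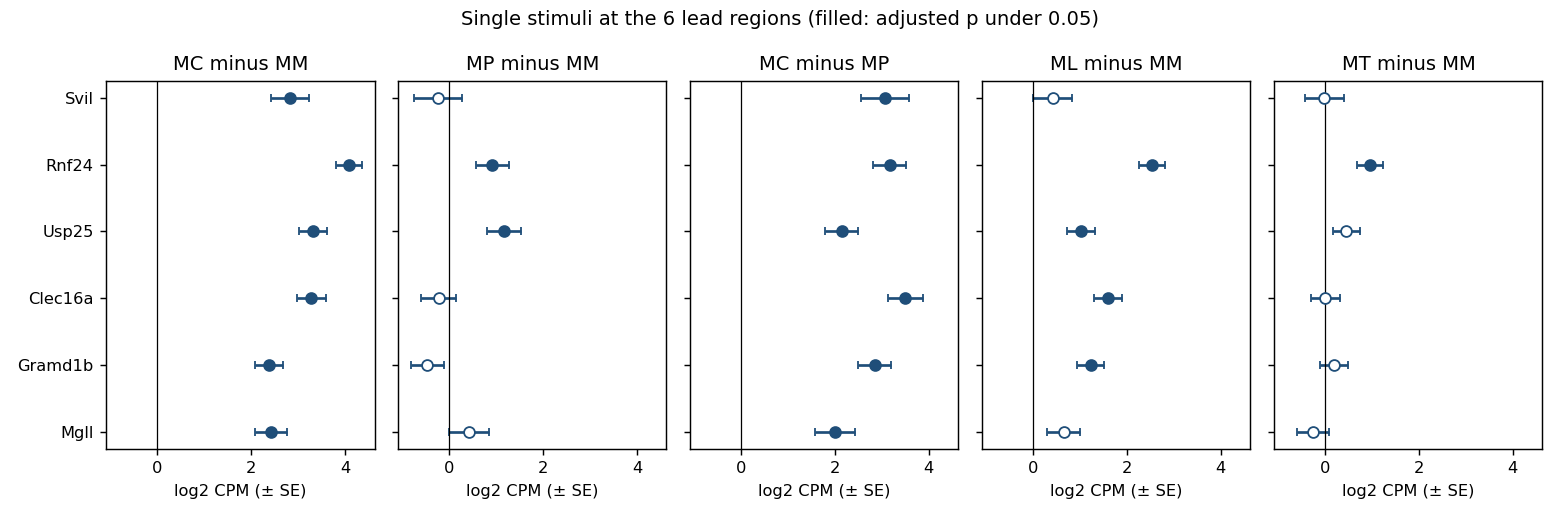
Differences between single stimuli and medium, and between MC and MP, in log2 CPM (horizontal axes) at the lead region of each gene (rows), with bars for the standard error from limma's fit and filled points where called. Against medium, the CpG differences lay between 2.39 and 4.09, those of polyI:C between -0.46 and 1.17, those of LPS between 0.42 and 2.53 and those of TNF between -0.26 and 0.96.

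LPS and TNF, the second stimuli, were each compared with medium. LPS raised the lead regions of Rnf24, by 2.53 ± 0.28 (adjusted p = 1.15e-08), Clec16a, by 1.60 ± 0.30 (0.000131), Gramd1b, by 1.23 ± 0.29 (0.00201), and Usp25, by 1.03 ± 0.29 (0.009). Mgll, at 0.65 ± 0.34, and Svil, at 0.42 ± 0.41, were not called. With quantile normalization the Usp25, Gramd1b and Clec16a calls were lost (adjusted p = 0.663, 0.14 and 0.0512), and the Usp25 call also without ML replicate 2 (0.11) or MM replicate 1 (0.0519). Over the 73 regions 16 were higher in ML and 1 lower (15% and 9.55% of all regions, 24.5% called in all), with a median of 0.20. TNF alone raised 1 lead region, that of Rnf24, by 0.96 ± 0.28 (adjusted p = 0.0306), a call lost in 7 of 13 alternatives, among them without MM replicate 2 (0.343) or either MT library (0.061 and 0.233). The other 5 ran between -0.26 ± 0.34 at Mgll and 0.46 ± 0.29 at Usp25. Of the 73, 5 were higher in MT (5.79% of all regions, 6.36% called in all). None was called lower by limma or by voom, with 2 lower at an unadjusted p under 0.05 (0.573% of all regions were called lower). The 5 became 3 without MM replicate 2 or either MT library. The MC group mean lay above the ML and MT means at all 6 regions, a difference that was not tested.

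The levels with 2 stimuli were also set beside those with 1, as a description. CL differed from MC by 0.08 at Mgll to 1.13 at Clec16a, and CT differed from MC by -0.44 at Mgll to 0.54 at Svil. Against the same second stimulus after medium, CL exceeded ML by 1.69 (Gramd1b) to 3.44 (Svil) and CT exceeded MT by 1.83 (Gramd1b) to 3.60 (Clec16a). After polyI:C the levels lay on both sides of no priming, PL differing from ML by -0.76 (Rnf24) to 0.79 (Usp25) and PT from MT by -0.71 (Rnf24) to 0.47 (Usp25). The CpG and polyI:C difference under LPS was smaller than that under TNF at 5 of the 6 regions. The difference under LPS minus that under TNF was -1.15 ± 0.43 at Clec16a, -0.99 ± 0.40 at Rnf24 and 0.22 ± 0.41 at Gramd1b. At Svil it was -0.71 ± 0.58, at Usp25 -0.33 ± 0.41 and at Mgll -0.06 ± 0.48. These comparisons share libraries with the choice of genes and carry no test.

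At the nearest regions of the same genes the difference was smaller or reversed. For CL against PL and CT against PT this follows in part from how the lead regions were chosen. The next deposited region of the same gene lay 4.15 kb (Gramd1b) to 89.1 kb (Mgll) from the lead region, and its difference between CL and PL was between -0.87 (Gramd1b) and 0.24 (Clec16a). The Gramd1b neighbour (chr9:40424832-40425333) went the other way from its lead region, at -0.87 ± 0.19 for CL against PL and -0.53 ± 0.19 for CT against PT. At Rnf24 the neighbour is the region at the gene's start (chr2:131352648-131353149), which overlaps the bases printed above. Its group means lay between 4.73 and 5.12, and CL differed from PL by 0.00 ± 0.14, CT from PT by 0.11 ± 0.14 and MC from MM by 0.05 ± 0.14 (adjusted p = 0.858). The start region of Clec16a (chr16:10545022-10545523) had group means of 4.81 to 5.01 and a difference of MC from MM of 0.02 (adjusted p = 0.943). Of the regions at the Usp25 start, the one with the higher mean level (chr16:77013369-77013870) had a difference of -0.05 (adjusted p = 0.829), and one of -0.53 ± 0.14 between CT and PT. There the PT libraries stood apart, at 5.62 and 6.19, against 5.44 and 5.30 in CT. The other region at that start (chr16:77013927-77014428) had -0.33 ± 0.22 between MC and MM (adjusted p = 0.308) and -0.47 ± 0.22 between CT and PT. The region at an end of Svil (chr18:4920262-4920763) differed by -0.26 ± 0.21 between MC and MM (adjusted p = 0.402). Gramd1b had no region within 1 kb of a gene end.

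**Figure D4:**
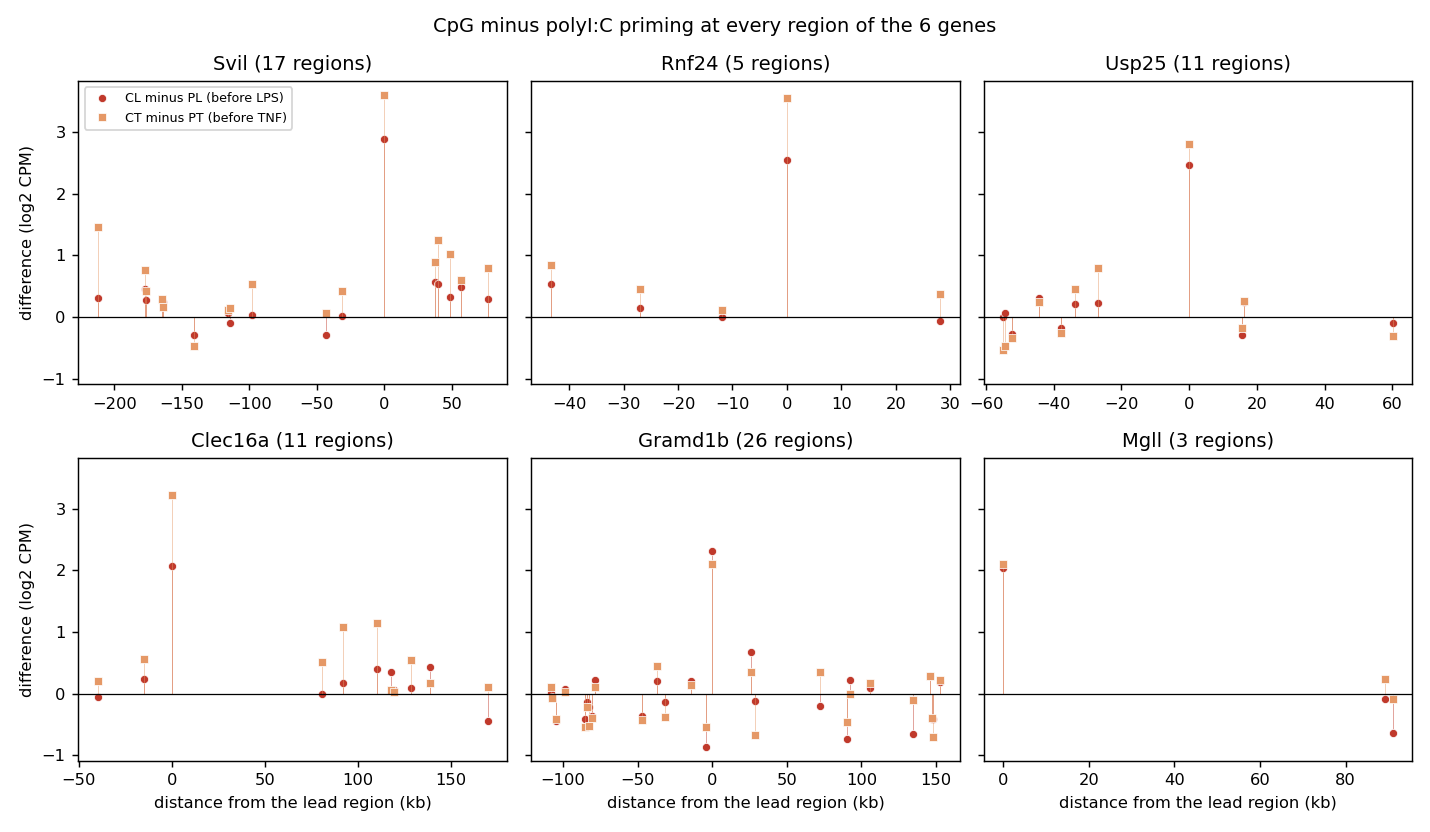
Difference of CL from PL and of CT from PT (log2 CPM, vertical axis) at every region of the 6 genes, by distance from the lead region along the chromosome (kb, horizontal axis). The lead regions, chosen by these same differences, lay between 2.04 and 3.60 in both contrasts, and no other region exceeded 1.46 in either.

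Svil had the only second holding region, 4.22 kb outside the gene (chr18:5123260-5123761), just inside the threshold, with CL above PL by 0.57 ± 0.16 and CT above PT by 0.90 ± 0.16. Its call in CL against PL was lost in 5 of 18 alternatives. Between single stimuli, MC exceeded MP there by 0.87 ± 0.20 (adjusted p = 0.0021). MP fell below MM, at -0.54 ± 0.20 (0.0413), a call lost in 4 of 14 alternatives, and MC was not called against MM, at 0.33 ± 0.16 (0.134). The next region inside the threshold was the Mgll lead region. Just outside were an Rnf24 region (chr2:131321145-131321646) with CL above PL by 0.54 ± 0.19 and CT above PT by 0.84, and a Svil region (chr18:5125319-5125820) with 0.54 ± 0.20 and 1.26. Svil and Clec16a had more regions higher in CT than PT, 8 of 17 and 5 of 11, than higher in CL than PL, 2 and 1, as did all regions together (17.3% against 4.24%). One such Svil region, chosen after its values were seen, lay 47.2 kb outside the gene (chr18:4873029-4873530). Its group means were 5.19 in CT and 3.74 in PT, but 5.01 in CL and 4.71 in PL, with 4.83 in ML. CpG alone raised it by 1.57 ± 0.15 over MM (adjusted p = 4.49e-10), and polyI:C alone lowered it, at -0.67 ± 0.19 (0.00743).

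Other regions had differences opposite to those of the lead regions. Of the 26 at Gramd1b, 3 were lower in CL than PL and 7 lower in CT than PT (11.5% and 26.9%, beside 4.23% and 14.6% of all regions), and 2 were higher in each. In MC against MM 4 were higher and 5 lower (15.4% and 19.2%, beside 17.2% and 8.79% of all regions). A Svil region (chr18:4944415-4944916) had the gene's lowest difference, -0.29 in CL against PL and -0.47 in CT against PT, and was lower in MC than MM, at -0.86 ± 0.29 (adjusted p = 0.0234). A Usp25 region (chr16:77015959-77016460) had -0.28 and -0.34 and was higher in MP than MM, by 0.69 (adjusted p = 0.0408). At Mgll the region at the gene's far end (chr6:88827894-88828395) had -0.64 and -0.10, and a Clec16a region beyond the gene (chr16:10754466-10754967) had -0.45 and 0.11.

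The lead regions were set beside the 1582 holding regions at other loci for the single stimuli. The median difference of MC from MM was 3.06 over the 6 lead regions and 0.55 over the others, of which 783 (49.5%) were higher and 92 (5.82%) lower, beside 17.2% and 8.79% of all regions. MC exceeded MP at all 6 and at 933 of the others (59%), beside 7.47% of all regions. PolyI:C alone raised 2 of the 6, and among the others it raised 137 and lowered 430 (8.66% and 27.2%, beside 14.3% and 8.28% of all regions). LPS alone raised 4 of the 6, and among the others it raised 545 and lowered 74 (34.5% and 4.68%, beside 15% and 9.55%). TNF alone raised 1 of the 6, and among the others it raised 139 and lowered 18 (8.79% and 1.14%, beside 5.79% and 0.573%). In MM the 6 stood at or below 1.23, as did 162 of the others (10.2%) and 2.77% of all regions. The holding regions belonged to 1083 genes, of which 878 (81.1%) had just 1, as 5 of the 6 genes here did. The 6 were picked from the upper end of this list, so these values describe them and test nothing.

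Across the 9 group means the 6 lead regions ran closely together, with Pearson correlations of 0.897 to 0.967 over their 15 pairs (median 0.948). The same libraries lie behind all of them and the genes were chosen for a shared contrast. Regions of other genes with the most similar course were sought among 9895 regions in the upper part of mean levels whose group means differed by at least 1. They lay inside Nrg3 and near Sema6d for Svil (0.98 each), inside Pik3r5 and near Ikzf1 for Rnf24 (0.99 each), and near Sema6d and at an end of Rhog for Usp25 (0.99 and 0.98). For Clec16a they lay inside Pdxdc1 and Vwa8 (0.99 each), for Gramd1b inside Kmt2c and near Gpsm2 (0.98 each), and for Mgll at an end of Prep and near Epha1 (0.98 and 0.96). The Nrg3 and Sema6d regions did not count as holding, while the other regions named here did.

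Genes of paralogs and partners of the 6 proteins were examined next, in a list that also took in chromosomal neighbours of Clec16a. Of the 42 genes listed 39 had regions, 195 in all, of which 10 held (5.13%, against 2.95% of all regions). Regions at Rmi2, a neighbour of Clec16a, were among those 10. In MC against MM 32 were higher and 21 lower (16.4% and 10.8%, near the 17.2% and 8.79% of all regions) with a median of -0.01. In MC against MP 11 were higher and 9 lower (5.64% and 4.62%, near the 7.47% and 5.2% of all regions). The largest smaller-of-the-2 difference was inside Abca1, the cholesterol exporter gene (chr4:53126784-53127285), with CL above PL by 1.16 ± 0.25 and CT above PT by 2.16 ± 0.25. CpG alone against medium was not called there, at 0.30 ± 0.25 (adjusted p = 0.41), while MC exceeded MP by 1.77. A region at an end of Gramd1a, a gene of the same Aster family as Gramd1b (chr7:31156227-31156728), had 1.00 and 1.15 and rose with CpG alone by 0.77 ± 0.23 (adjusted p = 0.011). One inside Tnks2, a tankyrase gene (chr19:36853262-36853763), had 1.03 and 1.48 but fell with CpG alone, at -0.66 ± 0.22 (0.024).

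Genes for the receptors and adaptors of CpG, LPS and TNF were examined in the same way. Those for polyI:C, Tlr3 and Ticam1 among them, were not counted. Regions were assigned to 19 of the genes examined, 97 in all, and 5 held (5.15%, beside 2.95% of all regions). CpG alone raised 31 and lowered 9 (32.0% and 9.28%, beside 17.2% and 8.79% of all regions). PolyI:C alone raised 23 and lowered 10 (23.7% and 10.3%, beside 14.3% and 8.28%), LPS alone raised 30 and lowered 9 (30.9% and 9.28%, beside 15% and 9.55%), and TNF alone raised 17 (17.5%, beside 5.79%). Tirap, which encodes an adaptor that brings MyD88 to TLR4, had a region inside the gene (chr9:35187419-35187920) with CL above PL by 1.25 ± 0.24, CT above PT by 1.24 and MC above MM by 2.65 ± 0.24. A region inside Tnfrsf1b, the gene of a TNF receptor (chr4:145215358-145215859), had 1.02, 1.78 and 1.14 in the same 3 comparisons. At Birc3, an inhibitor of apoptosis in TNF signalling (chr9:7857102-7857603), they were 0.95, 2.26 and 1.78. The region at an end of Tlr9, the CpG receptor gene (chr9:106222318-106222819), went the other way, at -1.06 ± 0.16 for CL against PL and -0.36 for CT against PT. CpG alone gave -0.24 ± 0.16 there (adjusted p = 0.32).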

How the data were processed

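The 18 ATAC-seq libraries, 2 in each of 9 groups, were made with 30 minutes of transposase at 37 °C, per the labels' protocols. Bowtie2 2.2.5, SAMtools 1.9, Picard, MACS3 3.0.0b1, featureCounts and the build mm10 (GRCm38) are listed in the submitters' processing notes. Their settings are not given in the sources used here. The deposited values are log2 CPM per region, scaled by the authors. All of them (100%) return whole reads within 0.01 with a mean prior of 3 reads, which understates differences at low counts. Recovered counts were 3141641 to 5986835 per library, with medians of 40 to 75 reads per region.

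Regions went to the nearest of 21900 protein-coding genes of RefSeq (GRCm38.p6), which shows position and not which gene a region acts on. Limma 3.58.1 in R 4.3.3 fitted 9 group means over all 53796 regions without a filter, with a variance trend (8 residual and 26.64 prior degrees of freedom). P-values were adjusted by Benjamini and Hochberg and called under 0.05. The SE after ± is from this fit, with 2 libraries a group and 1 for MP. Genes, lists and naming rules were chosen with earlier results of these data known, and the differences of CL and CT from MC were added after the data were seen. Every region of the genes was counted. Named in full was the lead region of each gene, and more briefly the other holding regions, the region at a gene end, that with the lowest difference, and those next to the threshold. Of each gene list the text gives the 3 regions with the largest smaller difference and 1 further region at Tlr9. A genome sequence was not used here. Same-numbered libraries did not deviate together in most pairs of groups, so no block was used. Alternatives were other scalings, prior, filter, variance models, voom on recovered reads, gene assignment, each library left out, both MP libraries counted, only the compared groups and the replicate block.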

Additional observations from a re-analysis of the deposited data

How the results depend on the processing

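At the 6 lead regions the calls of MC over MM and of MC over MP kept their direction and side of the threshold in every alternative that gave a value. The filter at the 25th percentile of mean level kept 40347 regions and 55 of the 73 but no lead region. With it the member regions called were 14 instead of 23 for MC against MM, 8 instead of 16 for MC against MP, 3 instead of 5 for MT against MM, and 1 instead of 7 held. Assignment within 10 kb left 9 for MC against MP, 10 instead of 17 for ML against MM and 1 for MT against MM. Quantile normalization left 11 instead of 18 for MP against MM and 3 for MT against MM, and voom and the fit of only the compared groups left 3 for the last. Leaving out 1 library gave 17 to 20 regions for MC against MM, 10 to 17 for MP against MM, 10 to 19 for MC against MP, 13 to 16 for ML against MM, 3 to 4 for MT against MM, and 6 to 11 that held. Counting both MP libraries gave 25 for MP against MM and 24 for MC against MP.

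Uncalled lead regions with changed sign were, for MP against MM, Svil and Clec16a, which ran from -0.65 to 0.19 and from -0.56 to 0.13 as single libraries were left out, and Mgll at -0.25 with quantile normalization. For ML against MM they were Svil at -0.37 and Mgll at -0.13 with quantile normalization. For MT against MM, leaving out 1 library gave -0.42 to 0.40 at Svil, -0.14 to 0.53 at Gramd1b, -0.33 to 0.35 at Clec16a and -0.53 to 0.0069 at Mgll. There Svil was also at 0.0029 with libraries shifted to one median, and Gramd1b at -0.15 and Clec16a at -0.25 with quantile normalization. The cause was not tested. With quantile normalization the MC difference at Mgll was 1.59 instead of 2.43.

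Replicate numbers did not pair the libraries in most pairs of groups. Over 36 pairs of groups the correlation of deviations ran between -0.358 and 0.242, over 0.1 in 5. With the replicate number as a block, 22, 13, 13, 17 and 5 regions were called for MC, MP, MC against MP, ML and MT, and 7 held. With 1 to 9 reads in MM, the lead regions' size of change is less certain than its direction.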
